A study of Mus musculus with 4 samples.

Results

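A set of 9 genes of the type 1 helper T cell program was followed in 4 RNA sequencing libraries of stimulated mouse CD4+ T cells. They were chosen by name as the regulators and receptors around interferon gamma: Tbx21, Eomes, Runx3, Hlx, Ifng, Ifngr1, Ifngr2, Il12rb1 and Il12rb2. All 9 were present among the 21937 gene symbols of the count table. The cells were splenic CD4+ T cells of B6 mice aged 6 weeks, treated with PMA and ionomycin, drugs that activate protein kinase C and raise calcium and so bypass the T cell receptor. The series addresses the role of NEDD4-family ubiquitin ligases, such as Itch and WWP2, when CD4+ T cells are activated. There was 1 library for each genotype: wild type, Itchf/f Cd4cre (Itch KO), WWP2-/- (WWP2 KO) and DKO of Itch and WWP2. In Itch KO the Cd4-driven Cre deletes the floxed gene in T cells only, including the CD8 lineage, which passes through a CD4-positive stage in the thymus. The labels of the double KO do not say how Itch was removed. The labels give neither the number of mice behind a library nor the duration of stimulation.

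Type 1 helper cells arise when IL-12, read by a receptor of the chains IL-12Rβ1 and IL-12Rβ2, signals through STAT4, and when interferon gamma signals through IFNGR1 and IFNGR2. Both routes favour T-bet, the T-box factor encoded by Tbx21. T-bet, its relative Eomesodermin, Runx3 and the homeobox factor Hlx drive the Ifng gene, and Runx3 also takes part in silencing Il4. Interferon gamma in turn induces guanylate-binding proteins, immunity-related GTPases and antigen presentation genes in the cells that receive it.

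Total counts ran from 17130747 to 17990392 reads, so depth limited the libraries alike. With 1 library per genotype none of the differences has a replicate check and no p-value is given. Levels are CPM, which are counts divided by a library size adjusted with trimmed mean of M values (TMM) factors. Folds are ratios of scaled counts with an exact 95% conditional interval, which covers counting error only. A gene is called higher or lower when its log2 ratio (prior count 2) reaches 1 in size, its mean over the 4 libraries is at least 2 CPM and the interval excludes 1. Of the 9 genes, 8 met the CPM minimum and Hlx did not. Wwp2 itself was counted 1363 times in wild type, 1332 times in Itch KO, 4 times in WWP2 KO and 1135 times in the double KO. That last count shows no loss like that in WWP2 KO, so the sample is called the DKO-labelled library. A direction drawn from it describes that library, whatever its genotype. Itch had between 1914 and 2389 reads in every library. Counts per gene do not show which part of a gene the reads cover, so the loss of Itch could not be checked. The same limit holds for Wwp2 in the DKO-labelled library. A Wwp2 allele that keeps its reads and a wrong label cannot be told apart there. The CD4 T cell markers Cd4, Cd3e, Cd3d, Cd3g, Cd28 and Cd5 were read in every library, with a summed level between 1402 and 1553 CPM. Single markers differed in the DKO-labelled library: relative to wild type, Cd4 was 2.16-fold higher (2.09 to 2.25), Cd3g 2.19-fold higher (2.06 to 2.34) and Cd5 2.36-fold lower (2.29 to 2.44). These 3 of the 6 markers were called, where 12.3% of all genes tested were higher and 6.34% lower. None of the 6 was called in Itch KO, where 4.89% were higher and 0.846% lower. The same held in WWP2 KO, where 0.282% were higher and 0.161% lower. All of these are bulk libraries, in which fewer cells of a kind and less RNA per cell cannot be told apart.

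The 4 promoters below belong to Tbx21, Eomes, Ifng and Il12rb2, the genes that stood at least 2-fold lower in the DKO-labelled library than in Itch KO, as 5.16% of all genes tested did. They are shown because these genes moved the same way in that comparison, and each is the 250 bases before the annotated start in RefSeq, build GRCm38.p6, 5′ to 3′ on the gene's strand. Tbx21 lies at chr11:97115332-97115581 on the minus strand, Eomes at chr9:118477939-118478188 on the plus strand, Ifng at chr10:118440796-118441045 on the plus strand and Il12rb2 at chr6:67376189-67376438 on the minus strand. Capitals mark matches to the STAT letters.
Tbx21: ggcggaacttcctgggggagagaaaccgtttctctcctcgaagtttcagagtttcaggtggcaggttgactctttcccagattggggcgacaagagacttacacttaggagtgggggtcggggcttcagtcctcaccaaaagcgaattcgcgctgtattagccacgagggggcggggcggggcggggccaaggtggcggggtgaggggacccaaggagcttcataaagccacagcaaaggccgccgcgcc
Eomes: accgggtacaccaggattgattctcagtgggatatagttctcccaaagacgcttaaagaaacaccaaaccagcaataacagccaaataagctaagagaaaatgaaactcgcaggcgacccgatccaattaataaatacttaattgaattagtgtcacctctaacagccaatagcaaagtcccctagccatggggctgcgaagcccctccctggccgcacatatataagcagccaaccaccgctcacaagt
Ifng: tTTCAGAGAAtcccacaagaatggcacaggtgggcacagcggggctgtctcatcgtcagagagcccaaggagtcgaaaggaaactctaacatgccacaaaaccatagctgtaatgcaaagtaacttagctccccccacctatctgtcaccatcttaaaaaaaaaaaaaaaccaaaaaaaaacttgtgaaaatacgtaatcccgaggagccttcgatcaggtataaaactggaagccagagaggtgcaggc
Il12rb2: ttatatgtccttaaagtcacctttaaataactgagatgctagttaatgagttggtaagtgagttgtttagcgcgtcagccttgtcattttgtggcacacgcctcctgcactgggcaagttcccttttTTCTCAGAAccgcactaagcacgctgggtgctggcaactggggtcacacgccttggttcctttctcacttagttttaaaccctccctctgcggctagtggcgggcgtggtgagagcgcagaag
Promoters were found for 8 of the 9 genes, all but Il12rb1, in 9 windows, since Runx3 has 2 starts. Both strands were searched for AP-1 letters (TGANTCA), an NFAT core (GGAAAA), Runx letters (TGTGGT), a T-box half-site (GGTGTGA) and STAT letters (TTCNNNGAA). The STAT letters were found in the windows of Ifng and Il12rb2 and in 7.02% of all 32851 promoters of the same length. The Runx letters occurred as 2 matches in 1 of the Runx3 windows and in 14.0% of all promoters. The NFAT core was found in the Hlx window and in 20.4% of all promoters. The AP-1 letters (6.75% of all promoters) and the T-box half-site (3.33%) were in none of the 9 windows. These are matches of letters in short windows, and none was examined as a binding site.

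The lineage factor genes parted from each other across the libraries. Read counts of Tbx21 were 2402 (wild type), 2754 (Itch KO), 2370 (WWP2 KO) and 1262 (DKO-labelled). The last library was the low one, and the others lay close together. In Itch KO Tbx21 was 1.15-fold the wild-type level (1.08 to 1.21), and in WWP2 KO it was 0.998-fold (0.942 to 1.06). It was 2.04-fold lower than wild type in the DKO-labelled library (1.91 to 2.19), a log2 ratio of -1.03, just past the rule; scaling by total counts alone gave -0.96, which is not past it.

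Eomes, the other T-box factor of type 1 and cytotoxic lymphocytes, gave 162 (wild type), 498 (Itch KO), 133 (WWP2 KO) and 124 (DKO-labelled) reads. Here Itch KO was the high library and the remaining 3 were similar. Eomes was 3.07-fold higher in Itch KO than in wild type (2.57 to 3.69). The DKO-labelled library, although also labelled as lacking Itch, stood 4.30-fold below Itch KO (3.53 to 5.28) and at 0.714-fold the wild-type level (0.561 to 0.908), the latter not past the rule. Within each library, Eomes reads per Tbx21 read were 0.0674 in wild type (0.0572 to 0.0791), 0.181 in Itch KO (0.164 to 0.199), 0.0561 in WWP2 KO (0.0468 to 0.0668) and 0.0983 in the DKO-labelled library (0.0810 to 0.118). This ratio does not depend on scaling, and it was 2.68 times the wild-type value in Itch KO (2.23 to 3.23) and 1.46 times in the DKO-labelled library (1.14 to 1.86). Other T-box genes gave little signal: of 12 listed, Mga was the single gene that reached 2 CPM, with log2 ratios to wild type of -0.09, 0.13 and -0.67 in Itch KO, WWP2 KO and the DKO-labelled library.

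Read counts of Runx3 were 686 (wild type), 950 (Itch KO), 673 (WWP2 KO) and 1417 (DKO-labelled). Its order was thus WWP2 KO and wild type together, Itch KO above them and the DKO-labelled library highest. The folds to wild type were 1.38 (1.25 to 1.53), 0.992 (0.891 to 1.11) and 1.93 (1.76 to 2.11). The last, a log2 ratio of 0.94, missed the rule; under scaling by total counts it was 1.02 and passed. Hlx was nearly silent, with 1 read in wild type, 7 reads in Itch KO and 1 read in WWP2 KO, against 84 in the DKO-labelled library. Its ratio there was 78.4 to wild type (13.7 to 3132, resting on 1 read) and 11.2 to Itch KO (5.20 to 28.7). With a mean of 1.26 CPM Hlx was below the minimum and is counted as not called. Even in the library where it was highest, Hlx reached 4.52 CPM (3.60 to 5.60).

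The other Runx genes and their partners give the setting for Runx3. Runx2 was 2.66-fold higher in Itch KO than in wild type (2.26 to 3.13) and 6.58-fold higher in the DKO-labelled library (5.69 to 7.65). Runx1 was 1.63-fold (1.49 to 1.77) in Itch KO, not past the rule, and 2.63-fold higher (2.43 to 2.84) in the DKO-labelled library. Cbfb, which encodes the shared partner of the Runx proteins, was at 0.942-fold (0.908 to 0.978) and 0.871-fold (0.839 to 0.903). Zbtb7b, the gene of the CD4 lineage factor ThPOK, which opposes Runx3 in thymocytes, was at 0.723-fold (0.638 to 0.819) in Itch KO and 1.70-fold (1.54 to 1.88) in the DKO-labelled library. The corepressor genes Tle1, Tle3 and Tle4 had log2 ratios between -0.55 and 0.05 in these comparisons. Of the 7 genes, Itch KO had 1 called higher, beside 4.89% of all genes tested, WWP2 KO 0, beside 0.282%, and the DKO-labelled library 2, beside 12.3%. None of the 7 was called lower in these comparisons, beside 0.846%, 0.161% and 6.34% of all genes. The median log2 ratios of the 7 were -0.09, -0.06 and -0.03.

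**Figure D1:**
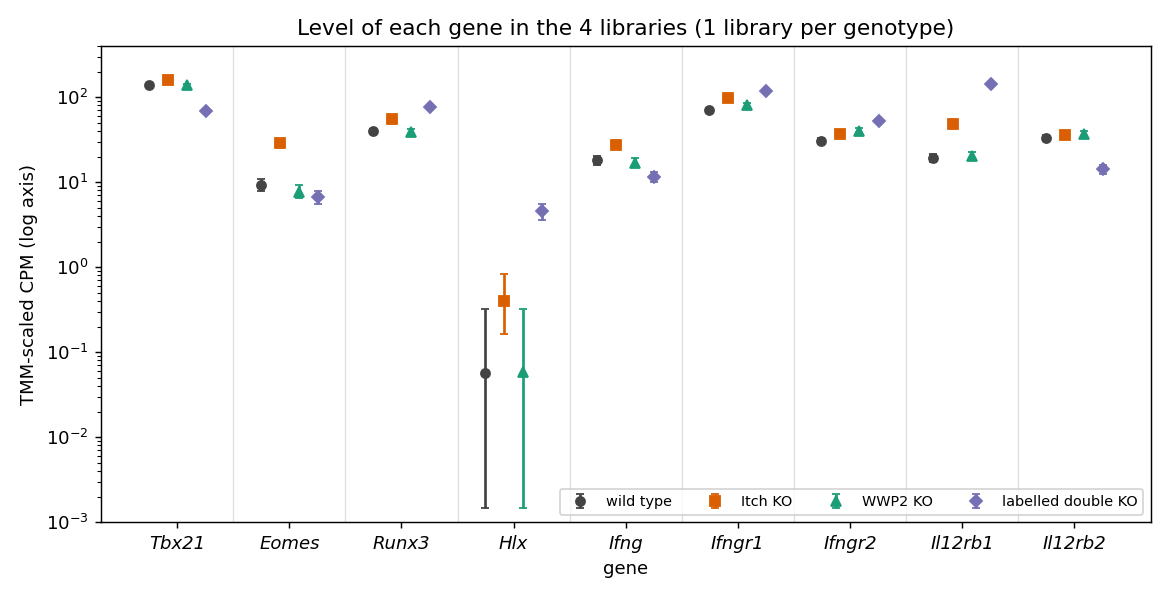
Level of the 9 genes in the 4 libraries, as TMM-scaled CPM on a log axis; each symbol is 1 library and bars are exact Poisson 95% intervals of the count. Eomes stood apart in Itch KO (498 reads), whereas Il12rb1, Hlx, Tbx21 and Il12rb2 stood apart in the DKO-labelled library.

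Read counts of Ifng were 312 (wild type), 469 (Itch KO), 291 (WWP2 KO) and 216 (DKO-labelled). Itch KO was highest and the DKO-labelled library lowest, with wild type and WWP2 KO between them. In CPM the levels were 18.0 (16.1 to 20.1), 27.0 (24.6 to 29.6), 17.0 (15.1 to 19.0) and 11.6 (10.1 to 13.3). Relative to wild type, Ifng was at 1.503-fold in Itch KO (1.30 to 1.74), 0.943-fold in WWP2 KO (0.801 to 1.11) and 0.646-fold in the DKO-labelled library (0.540 to 0.771), none past the rule. Between the last library and Itch KO the difference was 2.33-fold (1.98 to 2.75), lower in the former and past the rule. Ifng reads per Tbx21 read were 0.130 in wild type (0.115 to 0.146), 0.1703 in Itch KO (0.154 to 0.188), 0.123 in WWP2 KO (0.108 to 0.139) and 0.171 in the DKO-labelled library (0.147 to 0.198). The 2 libraries labelled as lacking Itch thus gave like values of this ratio, although their Ifng and Tbx21 levels lay on opposite sides of wild type.

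Markers of other lymphocytes that express these genes differed along with some of these values. Natural killer markers (6 genes, of which Klra8 was at 0 in every library and Ncr1 had at most 3 reads) summed to 15.6 (wild type), 10.1 (Itch KO), 10.7 (WWP2 KO) and 3.55 (DKO-labelled) CPM. The innate-like T cell markers Zbtb16 and Klrb1c summed to 21.1, 20.1, 20.4 and 2.80 CPM in the same order. Both lists, which share Klrb1c, were thus lowest in the library where Tbx21 and Ifng were lowest. Klrb1c, Klrd1, Klrk1 and Zbtb16 were all called lower there than in wild type, as were 6.34% of all genes tested. In Itch KO the natural killer sum was also below wild type, while Eomes and Ifng were above it. CD8 T cell markers summed to 15.9 CPM in Itch KO and to between 6.53 and 7.44 in the other libraries; Cd8b1 was 2.10-fold higher in Itch KO than in wild type (1.70 to 2.62), and Cd8a had between 2 and 9 reads in every library. Itch KO was also the library with the highest Eomes. The part of these markers in the results was not tested. B cell markers (5 genes, Pax5 at 0 throughout) summed to between 1.24 and 3.06 CPM, and myeloid markers (5 genes) to between 0.583 and 1.35 CPM.

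The receptor chains of interferon gamma differed less in their ratio to each other than the IL-12 receptor chains did. Ifngr1, the ligand-binding chain, gave 1224 (wild type), 1697 (Itch KO), 1377 (WWP2 KO) and 2210 (DKO-labelled) reads. Ifngr2, the chain needed for signalling, had 529, 643, 688 and 978 reads in the same order. Every other library was above wild type for both genes. The Ifngr1 folds were 1.39 (1.29 to 1.49), 1.14 (1.05 to 1.23) and 1.68 (1.57 to 1.81), and those of Ifngr2 were 1.22 (1.08 to 1.37), 1.32 (1.17 to 1.48) and 1.72 (1.55 to 1.92). None passed the 2-fold rule. Ifngr1 reads per Ifngr2 read stayed between 2.001 in WWP2 KO (1.83 to 2.20) and 2.64 in Itch KO (2.41 to 2.89), with 2.31 in wild type (2.09 to 2.57) and 2.26 in the DKO-labelled library (2.09 to 2.44); the lowest and the highest interval did not overlap.

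The IL-12 receptor chains came apart. Il12rb1, the chain shared with the IL-23 receptor, gave 332 (wild type), 841 (Itch KO), 349 (WWP2 KO) and 2631 (DKO-labelled) reads. It was 2.53-fold higher in Itch KO than in wild type (2.23 to 2.88) and 7.39-fold higher in the DKO-labelled library (6.59 to 8.31). Il12rb2, the chain that carries the STAT4 docking function, had 577, 615, 629 and 262 reads in the same order. It was similar in the first 3 libraries and low in the last, at 1.07-fold in Itch KO (0.949 to 1.20), 1.10-fold in WWP2 KO (0.983 to 1.24) and 2.36-fold lower in the DKO-labelled library (2.04 to 2.74). Il12rb1 reads per Il12rb2 read went from 0.575 in wild type (0.501 to 0.660) and 0.555 in WWP2 KO (0.485 to 0.633) to 1.37 in Itch KO (1.23 to 1.52) and 10.04 in the DKO-labelled library (8.84 to 11.4). The ratio was 2.38 times the wild-type value in Itch KO (2.004 to 2.82) and 17.5 times in the DKO-labelled library (14.5 to 21.0). Corrected for exon length, the chains stood at 0.760 Il12rb1 per Il12rb2 in wild type and 13.3 in the DKO-labelled library. Of the other genes of the IL-12 family, Il23r, which pairs with Il12rb1, had 8, 18, 8 and 9 reads, and Il12a, Il12b and Il23a had at most 3 in any library. The IL-27 receptor genes were not called; in the DKO-labelled library Il27ra was at 1.09-fold the wild-type level (1.03 to 1.15) and Il6st at 0.667-fold (0.627 to 0.710).

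**Figure D2:**
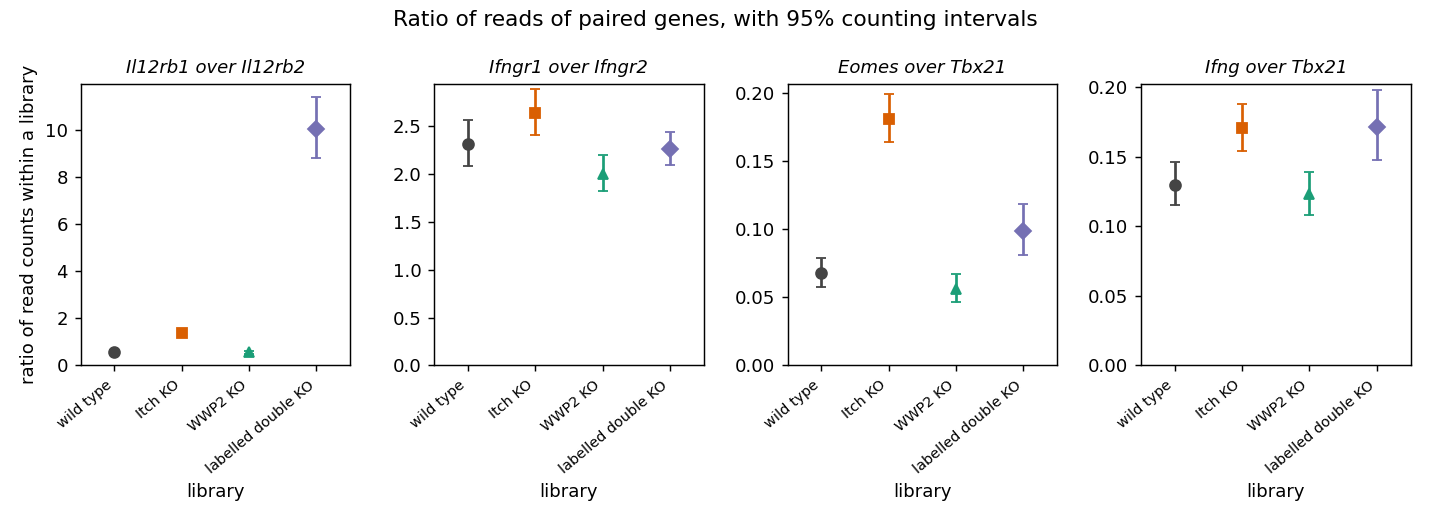
Ratio of reads of 2 genes within each library for 4 pairs, on linear axes from 0; bars are exact 95% counting intervals. Il12rb1 over Il12rb2 went from 0.575 in wild type to 10.04 in the DKO-labelled library, whereas Ifngr1 over Ifngr2 stayed between 2.001 and 2.64.

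The levels were set in order per length, as CPM per kilobase of exon, with exon lengths from a newer annotation than the one counted. In wild type Tbx21 came first at 55.7 (53.5 to 58.0), followed by Ifngr1 at 33.4 (31.6 to 35.4) and Ifng at 14.9 (13.3 to 16.6). Runx3 at 9.47 (8.78 to 10.2), Il12rb2 at 8.77 (8.07 to 9.52) and Ifngr2 at 8.23 (7.54 to 8.96) had neighbouring intervals that overlapped. Il12rb1 at 6.66, Eomes at 2.53 and Hlx at 0.0253 closed the order. In the DKO-labelled library Ifngr1 led at 56.3 (54.0 to 58.7), with Il12rb1 next at 49.3 (47.4 to 51.2) and Tbx21 at 27.3 (25.8 to 28.8). Runx3 at 18.3, Ifngr2 at 14.2, Ifng at 9.62 and Il12rb2 at 3.72 came after them. Hlx at 1.98 (1.58 to 2.46) and Eomes at 1.81 (1.503 to 2.15) were last and overlapped.

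Counted by the rule, Itch KO against wild type had 2 of the 8 genes that met the minimum higher (Eomes and Il12rb1) and 0 lower. Of all 9926 genes tested, 4.89% were higher and 0.846% lower. The median log2 ratio was 0.47 over the 9 genes, 0.47 over the 8 that met the minimum and -0.02 over all genes tested. WWP2 KO against wild type had 0 higher and 0 lower, beside 0.282% and 0.161% of all genes. The medians there were 0.01 over the 9 genes, which is the value of Hlx with 1 read in each library, 0.04 over the 8 that met the minimum and -0.01 over all genes. The DKO-labelled library against wild type had 1 higher (Il12rb1), where 12.3% of all genes were higher, and 2 lower (Tbx21 and Il12rb2), where 6.34% were. The median over the 9 genes was 0.75 with Hlx, which rests on 1 wild-type read, and 0.14 over the 8 genes that met the minimum, of which 4 had a ratio below 1; over all genes it was -0.03. These comparisons share the wild-type library.

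**Figure D3:**
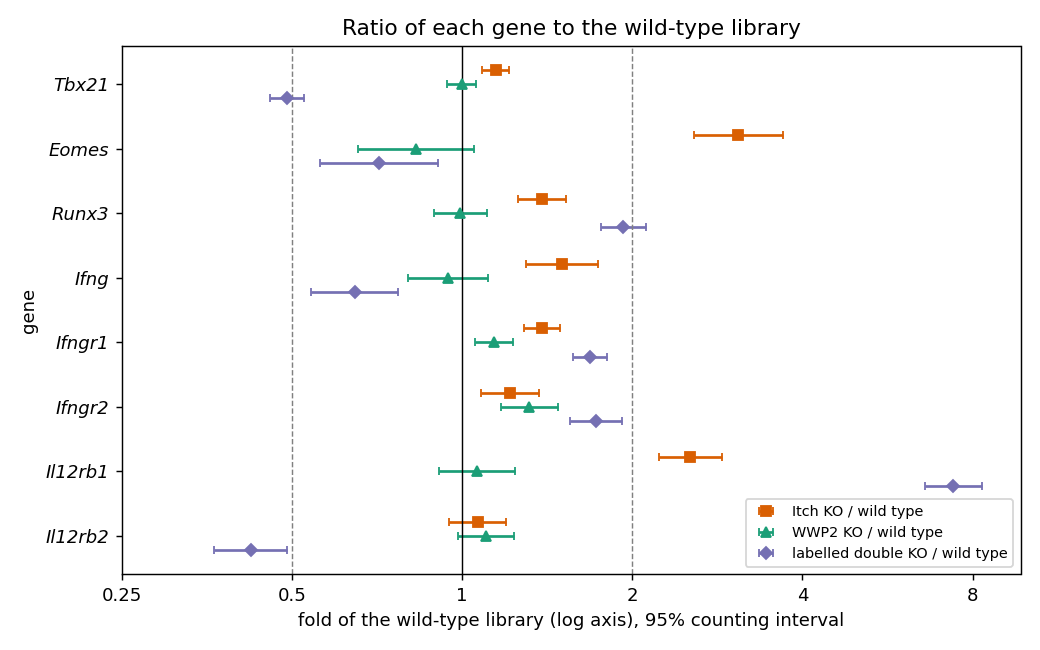
Fold of the wild-type library for the 8 genes that met the CPM minimum, on a log axis, in Itch KO, WWP2 KO and the DKO-labelled library; bars are exact 95% counting intervals and dashed lines mark the 2-fold rule. Eomes was past the upper line in Itch KO only, Il12rb1 in Itch KO and the DKO-labelled library, and Il12rb2 and Tbx21 past the lower line in the DKO-labelled library.

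Set against Itch KO, the DKO-labelled library carries the added WWP2 label without a matching loss of Wwp2 reads, 1135 against 1332. It had 4 of the 8 genes that met the CPM minimum lower, where 5.16% of all genes tested were lower. It had 1 higher (Il12rb1, 2.92-fold, 2.70 to 3.16), where 9.18% were. The lower genes were Eomes, Il12rb2, Tbx21 and Ifng, whose promoters are printed above. Il12rb2 was 2.52-fold lower (2.17 to 2.92) and Tbx21 2.34-fold lower (2.19 to 2.501), with Eomes and Ifng as given. Against WWP2 KO there were 1 higher (Il12rb1, 6.95-fold, 6.22 to 7.80), where 11.6% of all genes were higher, and 2 lower, where 6.05% were. Those were Il12rb2, 2.60-fold lower (2.25 to 3.02), and Tbx21, 2.04-fold lower (1.90 to 2.18); by total counts the Tbx21 log2 ratio was -0.98 and missed the rule.

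The 4 libraries also give a double ratio, the fold of the DKO-labelled library over Itch KO divided by the fold of WWP2 KO over wild type; it is 1 when the labels multiply. It was 0.280 for Eomes (0.207 to 0.379), 0.361 for Il12rb2 (0.300 to 0.433), 0.429 for Tbx21 (0.393 to 0.468) and 0.456 for Ifng (0.363 to 0.572), where the intervals cover counting error only. For Il12rb1 it was 2.75 (2.32 to 3.25) and for Runx3 1.403 (1.23 to 1.60). For the interferon gamma receptor chains the intervals held 1, with 1.07 for Ifngr1 (0.967 to 1.18) and 1.08 for Ifngr2 (0.928 to 1.25). The Hlx counts were too low for a statement (0.623 to 197). Single libraries cannot tell a departure from 1 apart from the spread between mice. The DKO-labelled library kept its Wwp2 reads, and its genotype is in doubt. The double ratio therefore cannot be read as a joint effect of losing both genes.

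The signal transducers of both receptors included negative regulators that were called. Socs3, which encodes an inhibitor of cytokine receptor signalling, was 3.61-fold higher in Itch KO than in wild type (3.21 to 4.07) and 12.6-fold higher in the DKO-labelled library (11.3 to 14.1). Socs1, which restrains interferon gamma signalling, was 2.06-fold higher in Itch KO and 2.06-fold higher in the DKO-labelled library (1.88 to 2.25 in each). Stat4 was at 1.45-fold (1.37 to 1.53) and 1.38-fold (1.31 to 1.46), and Jak2 at 0.946-fold (0.933 to 0.960) and 0.533-fold (0.524 to 0.542). Jak1, Tyk2 and the phosphatase gene Ptpn2 had log2 ratios between -0.29 and 0.51. Of these 7 genes, 2 were called higher and 0 lower in both comparisons. Of all genes, 4.89% were higher and 0.846% lower in Itch KO, and 12.3% and 6.34% in the DKO-labelled library. The medians of the 7 were 0.30 and 0.47, beside -0.02 and -0.03 over all genes. In WWP2 KO 0 of the 7 were called, beside 0.282% of all genes higher and 0.161% lower. The median there was 0.02, beside -0.01 over all genes.

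In Itch KO most genes that interferon gamma induces lay below wild type, while Ifng lay above it at 1.503-fold. Of 24 such genes listed 21 were tested, and 19 of these had a ratio below 1, beside 53.9% of all genes. Their median log2 ratio was -0.32. Ciita and Cxcl9 missed the CPM minimum and lay above wild type in Itch KO. Ciita had 3 (wild type), 31 (Itch KO), 2 (WWP2 KO) and 5 (DKO-labelled) reads, and Cxcl9 had 4, 15, 2 and 1. Cxcl10, a chemokine gene, was 2.18-fold lower (1.94 to 2.45) and was the single gene called, beside 0.846% of all genes lower; Irgm2, an immunity-related GTPase gene, was at 0.596-fold (0.564 to 0.631). At the upper end stood Iigp1 at 1.36-fold (1.30 to 1.42) and Gbp3 at 1.03-fold (0.964 to 1.10). In WWP2 KO, where Ifng was at 0.943-fold, 1 of the 21 had a ratio below 1, beside 52.2% of all genes. The median there was 0.21, and 0 were called, beside 0.282% of all genes higher and 0.161% lower. In the DKO-labelled library 17 of 21 were below 1, beside 51.8% of all genes, with a median of -0.57; 5 were called lower and 0 higher, beside 6.34% and 12.3% of all genes, and with scaling by total counts 4 were lower. The lowest were Cxcl10, 4.37-fold lower (3.77 to 5.08), and the guanylate-binding protein gene Gbp5, 3.11-fold lower (2.996 to 3.23), and the highest were the immunoproteasome genes Psmb10 at 1.39-fold (1.26 to 1.53) and Psmb8 at 1.33-fold (1.26 to 1.41). Many of these genes also respond to type I interferons, and the guanylate-binding protein and GTPase families hold close copies, between which the assignment of reads is uncertain.

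Other genes of type 1 and effector cells split. In Itch KO 7 of 18 tested were called higher and 0 lower, beside 4.89% and 0.846% of all genes, with a median log2 ratio of 0.76 against -0.02 over all genes. They were led by Nkg7, a cytotoxic granule gene, at 4.22-fold (2.99 to 6.08) and the granzyme gene Gzmb at 3.94-fold (3.64 to 4.27). At the lower end were Ly6c1 at 0.619-fold (0.561 to 0.683) and Il27ra at 0.839-fold (0.792 to 0.888). In WWP2 KO 0 of 18 were called, beside 0.282% of all genes higher and 0.161% lower, with a median of -0.01. In the DKO-labelled library 6 were higher and 4 lower, beside 12.3% and 6.34% of all genes, with a median of 0.37 against -0.03 over all genes. Gzmb was 76.6-fold higher there (71.3 to 82.3), from 767 to 62971 reads, and Nkg7 5.78-fold higher (4.14 to 8.25). The cytokine genes Tnf and Lta had the lowest log2 ratios with the prior count, -2.09 and -1.92, and were 4.27-fold (4.05 to 4.51) and 3.80-fold (3.45 to 4.20) lower. The chemokine gene Ccl3, with 18 reads against 64 in wild type, was 3.81-fold lower (2.23 to 6.83), a wider interval that holds both of these folds. Ccl4, another chemokine gene, had 87 reads against 287 in wild type and was 3.54-fold lower (2.77 to 4.55).

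**Figure D4:**
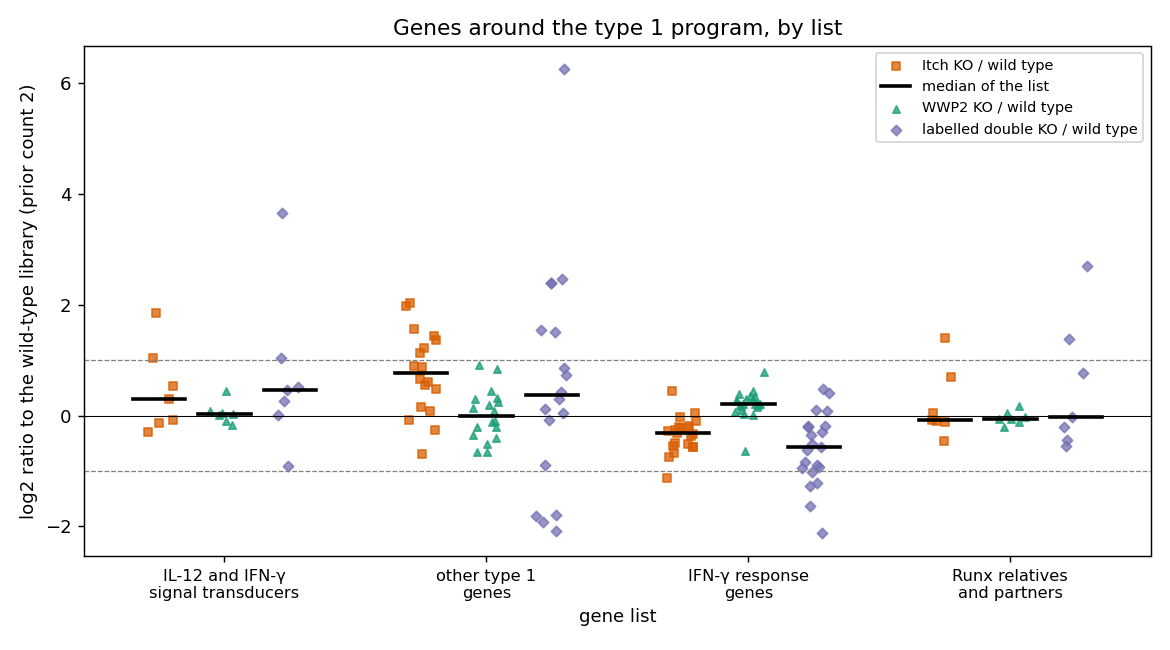
Log2 ratio to the wild-type library (prior count 2) of the tested genes of 4 lists, with each list's median as a bar and dashed lines at the 2-fold rule. The interferon gamma response genes lay mostly below 0 in Itch KO (median -0.32) and the DKO-labelled library (-0.57) and mostly above 0 in WWP2 KO (0.21).

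The genes with the pattern most like a given member were sought among 9162 others by the distance between log2 levels centred over the 4 libraries, which is a description of 4 points. For Ifng they were Lrrk2 (distance 0.11), Myc (0.13) and Adm (0.15). Myc, the growth-promoting factor gene, was at 1.499-fold in Itch KO and 0.678-fold in the DKO-labelled library relative to wild type. For Tbx21 they were Phf6 (0.05), Tagap (0.06) and Usp31 (0.06), each at 0.483-fold to 0.504-fold in the DKO-labelled library. For Eomes the nearest genes were farther off: Prrg4 (0.37), Csf2, which encodes the growth factor GM-CSF (0.52), and Tnfsf8, the CD30 ligand gene (0.55).

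The 9 genes lie on 8 chromosomes, with Ifng and Ifngr1 both on chromosome 10, and their 18 flanking protein-coding genes in the RefSeq order were examined for the same moves. Of these, 13 met the CPM minimum, and in the DKO-labelled library against wild type 1 was called higher and 3 lower, beside 12.3% and 6.34% of all genes. Tbkbp1, next to Tbx21, was counted 861 (wild type), 1113 (Itch KO), 969 (WWP2 KO) and 423 (DKO-labelled) times, a log2 ratio to wild type of -1.12 in the last. Osbpl7, on the other side of Tbx21, went the opposite way, with 477, 447, 533 and 736 reads in the same order and a log2 ratio of 0.52. Dusp10, next to the Hlx gene, had 209, 537, 249 and 1358 reads, with a log2 ratio of 2.59. Clic4, next to Runx3, was on the other side from its neighbour at -2.40, and Dyrk2, next to Ifng, was at -1.05. The flanking genes of Il12rb1, Mast3 and Arrdc2, were at 0.31 and 0.26, and Serbp1, next to Il12rb2, was at -0.81. These flanks were picked after their values were seen.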

How the data were processed

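The values were raw counts of reads per gene symbol, deposited by the authors in 1 table with 21937 genes and 4 libraries, and were not normalized. Per the submitters' processing notes the tools were TopHat 1.4.1 with Bowtie 1.0.0 and HTSeq 0.7.1, and the genome was mm9. No annotation or strand setting is named there, so reads of overlapping or antisense genes cannot be told apart. Libraries were made after mRNA enrichment, per the labels' protocols.

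TMM factors came from all 4 libraries and all genes with edgeR 4.0.16 in R 4.3.3, and alternative size factors from DESeq2 1.42.0. Ratios, exact conditional intervals, Poisson intervals and the 2-fold rule were computed over the whole table with Python 3.11.15, numpy 2.4.6, pandas 2.3.3 and scipy 1.17.1, and figures were drawn with matplotlib 3.10.9. The rule was tested on simulated data with known changes. With 1 library per genotype no test between genotypes was possible. Intervals cover counting error only and take all reads as independent. Reads carry no molecular identifiers, so copies of the same molecule cannot be told from separate molecules. Exon lengths are unions of GENCODE M21 basic exons (GRCm38), and promoters are from RefSeq (GRCm38.p6); the count table itself gives no coordinates. Genes named from a list are its 2 highest and 2 lowest tested members in the comparison described, and all members for lists of 8 or fewer. Of the interferon gamma response list, Ciita and Cxcl9 are also named, since they missed the minimum. Of the other type 1 genes, Ccl3 and Ccl4 are also named, since they were called lower in the DKO-labelled library than in wild type. For similarity the 3 nearest genes to Ifng, Tbx21 and Eomes are named. Unnamed gene models, small RNAs and antigen receptor segments were left out of that search. The members and the lists were chosen with earlier results of these data known, so no list is independent evidence; 1 gene of the signal transducer list is not reported here and was left out of its counts and medians. Alternatives tried were DESeq2 size factors, total count scaling, no minimum and a minimum of 10 CPM, prior counts of 0.5 and 5, and a 1.5-fold rule.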

Additional observations from a re-analysis of the deposited data

Results flagged for a closer look

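For 2 genes the step between Itch-intact and Itch-lacking labels went opposite ways with the WWP2 label, both counting intervals leaving out 1. Tbx21 was at 1.15-fold in Itch KO relative to wild type and at 0.491-fold in the DKO-labelled library relative to WWP2 KO (0.458 to 0.526). Ifng was at 1.503-fold in the first pair and 0.685-fold in the second (0.572 to 0.819). The second fold divided by the first was 0.429 for Tbx21 and 0.456 for Ifng. The pairs share no library, but with 1 library per genotype the difference was not tested against the spread between mice, and the label of the double KO is in doubt.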

How the results depend on the processing

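None of the 180 recomputed log2 ratios of the 9 genes, under the other scalings and prior counts, moved beyond its counting interval. The sign changed in 2, those of Tbx21 and Runx3 in WWP2 KO against wild type under total count scaling, where neither was called. Of 70 recomputed counts of called genes 61 stayed within 1.5 times and 9 did not. Under total count scaling the DKO-labelled library had 2 genes higher and 1 lower than wild type, and 2 higher and 1 lower than WWP2 KO: Runx3 entered and Tbx21 left. With no minimum it had 2 genes higher than wild type, 2 higher than Itch KO and 2 higher than WWP2 KO, since Hlx entered. Under the 1.5-fold rule it had 4 higher than wild type, since Runx3, Ifngr1 and Ifngr2 entered, and 3 lower, since Ifng entered. Against WWP2 KO it had 2 higher, since Runx3 entered. The share of all genes called was not computed for these settings. These counts therefore describe only how the calls of the 9 genes depend on the setting. The calls of Eomes and Il12rb1 in Itch KO, of Il12rb1 and Il12rb2 in the DKO-labelled library, and of the 4 genes lower there than in Itch KO were made under every setting tried. No paired analysis was possible because each group has 1 library. Depth limits Hlx, with 1 read in wild type.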
